A study of Mus musculus with 21 samples.

Results

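The Arg-TCT family is the set of transfer RNAs (tRNAs) that carry arginine and bear the anticodon TCT, written in the DNA alphabet. It was taken as every row whose name starts with Arg-TCT in both deposited count tables, which gave 5 isodecoders among the 204 tRNAs present in both. Isodecoders are tRNAs with the same anticodon and a different body, and the members are Arg-TCT-1-1, Arg-TCT-2-1, Arg-TCT-3-1, Arg-TCT-4-1 and Arg-TCT-5-1. tRNAs were sequenced with the Quant M method from Trizol-extracted total RNA of mouse cerebrum and cerebellum. Mutant cerebrum was sampled in 4 libraries, wildtype cerebrum in 6, mutant cerebellum in 5 and wildtype cerebellum in 6. Every animal was C57BL/6J, was fed ad libitum, received tamoxifen to induce recombination at postnatal day 28, and gave tissue that was frozen at day 42. The wildtype animals therefore received tamoxifen too, and the groups differ in genotype, Polr3a mutant or Wildtype. Sex was not balanced between the genotypes. In both tissues mutants 1 and 3 and wildtypes 1, 2, 4 and 6 were male and the others female. The labels name neither the recombinase and its promoter nor the cells it acted in. The comparisons ask how the mutation changes tRNAs in each tissue.

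Polr3a is the gene of the largest RNA polymerase III subunit; that enzyme transcribes nuclear tRNA genes, whereas a separate polymerase makes mitochondrial tRNAs. Arg-TCT tRNAs read the AGA codon of arginine, most mouse genes of the family hold a short intron that is spliced out of the precursor, and several genes can serve one codon in parallel. Arg-TCT-4-1 is the isodecoder also called n-Tr20, known for its enrichment in neurons, and the C57BL/6J strain carries a change in the T loop of this gene that impairs maturation of its tRNA. All libraries here share that strain. A tRNA library holds no protein-coding marker genes, so neither the tissue labels nor the cell source of any member could be checked, and in bulk tissue fewer cells of a type and less RNA per cell cannot be told apart.

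RefSeq lists 5 mouse loci with an n-TRtct symbol on GRCm38.p6, the mm10 build, and the files do not pair them with the rows. n-TRtct1 spans 86 bases at chr19:12011588-12011673 and n-TRtct3 spans 86 bases at chr13:21917162-21917247, both outside annotated genes. n-TRtct5 spans 74 bases at chr1:173390329-173390402 inside an intron of Aim2, a length near the 73 bases of n-TRtct2 without its own intron. n-TRtct4 spans 87 bases at chr11:69123482-69123568 on the minus strand, inside an untranslated exon of Hes7, which runs on the plus strand. n-TRtct2 spans 85 bases at chr3:122292948-122293032 on the minus strand inside an exon of the noncoding gene Gm17494. Its sequence, read from the GENCODE M21 transcript over that locus, is shown with the anticodon in capitals because it gives the architecture of an intron-bearing member, first as the gene and then without the intron.
n-TRtct2 gene: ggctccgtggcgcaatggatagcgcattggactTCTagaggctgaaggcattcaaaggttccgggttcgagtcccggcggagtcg
n-TRtct2 without intron: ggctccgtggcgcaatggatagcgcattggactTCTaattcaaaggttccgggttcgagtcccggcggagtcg
The anticodon starts at base 34, counted from the 5′ end of the gene, and the intron, placed by the pairing of the anticodon stem, holds 12 bases. Without introns n-TRtct2 and n-TRtct4 both have 73 bases and differ at 7 of them, an identity of 90.4%. No source used here gives the rule for reads that match several such bodies, so the split between members rests on the authors' counting.

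Total counts without the bacterial spike-in ran from 4353056 to 7588902 per cerebrum library and from 1612754 to 7110313 per cerebellum library. Depth and genotype were uneven in cerebellum, where mutant 1 and wildtype 1, 2, 3, 4 and 6 held fewer than 3500000 counts and mutants 2 to 5 and wildtype 5 held more. Mitochondrial tRNAs held 12.8% to 15.7% of counts in mutant and 10.4% to 11.7% in wildtype cerebrum, and 13.96% to 21.2% in mutant and 12.5% to 14.4% in wildtype cerebellum. Since no label ties the libraries of a group to different animals, the spread behind each p-value is that of libraries and may be technical.

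Each member is described by its level and its share. The level is in CPM, counts brought to a common library size with TMM (the trimmed mean of M values) over all 21 libraries. Differences in level were tested with edgeR across all tRNAs as log2 differences ± SE, each tissue with its own TMM factors for genotype, so they can depart a little from the ratio of the CPM means. The family sum was tested among anticodon sums with TMM factors of that table, so its CPM is on another scale and is not the total of the members' CPM; its value with the members' factors, an alternative chosen after seeing the data, is given beside it. The share is a member's percentage of the family's counts and does not depend on how libraries are scaled. The shares of a family add up to the whole, so a change in any member moves the others. Members whose shares pass are therefore not separate results. Share differences were tested with limma on the log2 ratio of a member to the rest of its family, over all nuclear isodecoders in families of at least 2. A difference passed where its p, adjusted by Benjamini-Hochberg over everything tested, was under 0.05.

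The family was a small and uneven part of the tRNA pool. It held 0.709% ± 0.0548 (SD, n = 6) of counts in wildtype cerebrum and 0.763% ± 0.0752 (SD, n = 6) in wildtype cerebellum. In each of the 21 libraries Arg-TCT-1-1 held the largest share and Arg-TCT-5-1 the smallest. Counts per library ran from 6521 to 32479 for Arg-TCT-1-1 and from 408 to 1809 for Arg-TCT-5-1 in cerebellum, and from 475 to 1077 for Arg-TCT-5-1 in cerebrum, so the last member has the widest counting error. In wildtype cerebrum Arg-TCT-1-1 made up 39.9% ± 2.66 of the family, Arg-TCT-3-1 23.9% ± 1.69, Arg-TCT-4-1 18.1% ± 1.68, Arg-TCT-2-1 15.4% ± 1.28 and Arg-TCT-5-1 2.65% ± 0.532 (SD, n = 6). Arg-TCT-4-1 and Arg-TCT-2-1, neighbours in that order, overlapped, at 16.0% to 20.2% and 13.2% to 16.8%. In wildtype cerebellum the order was Arg-TCT-1-1 at 56.1% ± 1.80, Arg-TCT-3-1 at 19.3% ± 1.35, Arg-TCT-2-1 at 12.3% ± 1.55, Arg-TCT-4-1 at 8.45% ± 1.12 and Arg-TCT-5-1 at 3.79% ± 0.288 (SD, n = 6). Arg-TCT-4-1 thus stood above Arg-TCT-2-1 in cerebrum and below it in cerebellum, where its range of 6.99% to 10.3% overlapped that of Arg-TCT-2-1, 9.91% to 14.3%. Shares compare read counts of rows and were not corrected for length or for how well each tRNA is captured.

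Arg-TCT-4-1, the neuron-enriched member, was the member with the largest difference between the wildtype tissues. Its level was 1181 CPM at the lowest, 1418 at the median and 1597 at the highest in wildtype cerebrum, and 515, 537 and 685 in wildtype cerebellum. Every wildtype cerebrum library lay above every wildtype cerebellum library. The log2 difference, cerebellum minus cerebrum, was −1.29 ± 0.13 (SE, edgeR adjusted p = 1.10e-09), or 0.408 times the cerebrum level, and ranked 10 of 204 by p. Arg-TCT-2-1 (log2 difference −0.52, edgeR adjusted p = 0.00224) and Arg-TCT-3-1 (−0.49, adjusted p = 0.00314) were lower in cerebellum too. Arg-TCT-1-1 (0.30 ± 0.14, adjusted p = 0.0546) and Arg-TCT-5-1 (0.33 ± 0.16, adjusted p = 0.0639) did not pass with edgeR. In total 3 of 5 members passed, all of them lower in cerebellum, where 71.1% of all tRNAs tested passed in either direction and 37.7% were lower. Both unpassed members passed with DESeq2, which called 5 of 5 and 71.1% of all tRNAs.

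The composition of the family differed between the wildtype tissues, and its sum did not pass on the TMM scale. With the factors of the anticodon sums it was 7929 ± 846 CPM in wildtype cerebrum and 7117 ± 851 CPM in wildtype cerebellum (SD, n = 6 each), and the log2 difference of −0.16 ± 0.12 did not pass (edgeR adjusted p = 0.224), where 75% of anticodon sums did. The members' CPM added to 7666 ± 779 and 6744 ± 865 (SD, n = 6 each), and with their factors the Arg-TCT sum had −0.18 (edgeR adjusted p = 0.172). In shares 5 of 5 members passed, beside 63.8% of all isodecoders. The log2 ratio to the rest of the family was higher in cerebellum for Arg-TCT-1-1 by 0.94 ± 0.09 and for Arg-TCT-5-1 by 0.55 ± 0.11, and lower for Arg-TCT-4-1 at −1.26 ± 0.11, Arg-TCT-2-1 at −0.39 ± 0.12 and Arg-TCT-3-1 at −0.39 ± 0.08 (SE, limma adjusted p from 1.23e-08 to 0.00905). Shares of Arg-TCT-1-1, Arg-TCT-4-1 and Arg-TCT-5-1 did not overlap between the wildtype tissues (exact two-sided permutation test, p = 0.00216, the lowest value it can give). Here and elsewhere overlap was examined for the Arg-TCT members only, and how common its absence is among all isodecoders was not counted. With the depth class as a covariate, 3 of the 5 kept a pass, and Arg-TCT-2-1 (−0.20, limma adjusted p = 0.385) and Arg-TCT-5-1 (0.41, limma adjusted p = 0.0589) did not. All cerebrum libraries were deep, above 3500000 counts, and wildtype 5 was the only deep library of wildtype cerebellum. Depth class and tissue therefore nearly coincide in wildtype and can hardly be told apart.

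Scaling to the spike-in gave another picture of levels between tissues. The spike-in row, a bacterial glutamine tRNA, took 0.222% to 0.316% of counts in wildtype cerebrum and 0.401% to 0.940% in wildtype cerebellum. On that scale the Arg-TCT family sum was lower in cerebellum by 1.05 (edgeR adjusted p = 1.73e-06) on the log2 scale, Arg-TCT-4-1 stood at −2.20, and Arg-TCT-1-1 and Arg-TCT-5-1 turned to −0.55 and −0.54. The labels do not say whether the spike-in was added per amount of RNA or of tissue. Arg-TCT-4-1 was lower in cerebellum on both scales.

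**Figure D1:**
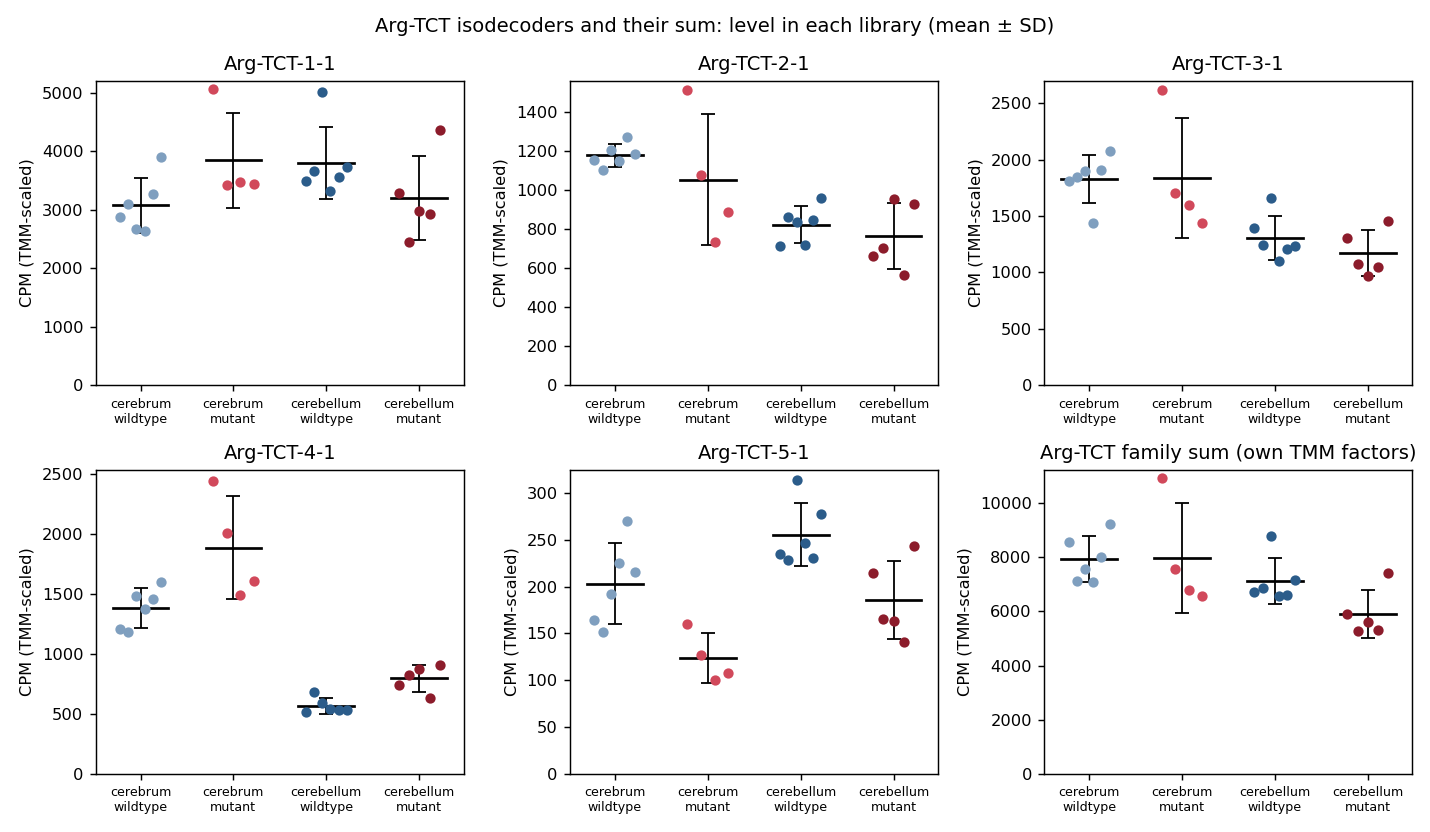
Level of each Arg-TCT isodecoder and of the family sum in TMM-scaled CPM, the sum with the separate factors of the anticodon sums, 1 point per library, with the mean (line) and SD (bar) of each genotype and tissue group; vertical axes start at 0 and differ between panels. Arg-TCT-4-1 lies between 1181 and 2440 in cerebrum and between 515 and 909 in cerebellum, and cerebrum mutant 1 is the highest library of its group in all 6 panels.

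In mutant cerebrum the level of 1 member changed and the make-up of the family shifted. Arg-TCT-5-1, the least abundant member, fell. Its level was 160, 127, 101 and 108 CPM in mutants 1 to 4, against 151 at the lowest, 204 at the median and 270 at the highest in wildtype. Mutant 1 lay within the wildtype range and the other 3 mutants lay below it. The log2 difference was −0.78 ± 0.17 (SE, edgeR adjusted p = 0.00217), or 0.581 times wildtype. It was the 1 member of 5 that passed, where 19.7% of all tRNAs tested passed and 11.5% were lower. The count of members is near that of all tRNAs and does not mark out the family. Arg-TCT-5-1 kept its pass in all 10 fits that each left out 1 library.

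Arg-TCT-4-1 ran the other way without passing. Its level was 2440, 2009, 1493 and 1610 CPM in mutants 1 to 4, and 1181, 1418 and 1597 CPM at the lowest, median and highest in wildtype. Mutant 3 lay within the wildtype range and the other 3 lay above it. The log2 difference was 0.37 ± 0.14 (SE, edgeR adjusted p = 0.0641). It passed with RLE size factors (0.43, edgeR adjusted p = 0.0286) and with DESeq2 (0.43, adjusted p = 0.0148), and it lost its direction when libraries were scaled to mitochondrial tRNAs (−0.02) or the spike-in (0.00 to 2 decimals, just below 0). Arg-TCT-1-1 (0.24 ± 0.14, edgeR adjusted p = 0.239), Arg-TCT-2-1 (−0.24 ± 0.16, adjusted p = 0.311) and Arg-TCT-3-1 (−0.08 ± 0.15, adjusted p = 0.801) did not pass, and neither did the family sum at 0.03 ± 0.12 (adjusted p = 0.940), where 11.1% of anticodon sums passed. With the members' factors the Arg-TCT sum stood at 0.11 (edgeR adjusted p = 0.589), and the members' CPM added to 8746 ± 2075 (SD, n = 4) in mutant and 7666 ± 779 (SD, n = 6) in wildtype. Without mutant 1, the library highest in all members, Arg-TCT-2-1 stood at −0.40 and passed (edgeR adjusted p = 0.0347).

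Shares within the family, which no scaling changes, passed for 4 of 5 members in cerebrum, beside 44.9% of all isodecoders tested. Arg-TCT-5-1 held 1.36%, 1.52%, 1.36% and 1.45% of the family in mutants 1 to 4, and 2.05%, 2.49% and 3.31% at the lowest, median and highest in wildtype. All mutants lay below all wildtype libraries, with a log2 ratio change of −0.90 ± 0.14 (SE, limma adjusted p = 0.00101; exact two-sided permutation test, p = 0.00952, the lowest value 4 against 6 libraries can give). Arg-TCT-2-1 held 12.8%, 12.9%, 9.89% and 11.9% in mutants and 13.2%, 15.8% and 16.8% in wildtype, again with all mutants lower (−0.44 ± 0.11, limma adjusted p = 0.00815). These falls, of the member with the lowest mean share in cerebrum and the next above it, held in all 10 fits that left out 1 library.

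Arg-TCT-4-1 took a larger part of the family in mutant cerebrum. Its share was 20.7%, 24.1%, 20.2% and 21.6% in mutants 1 to 4, and 16.0%, 17.8% and 20.2% at the lowest, median and highest in wildtype. The lowest mutant and the highest wildtype library met, at 20.20% and 20.21%, and the other 3 mutants lay above all wildtype libraries. The change was 0.33 ± 0.10 (SE, limma adjusted p = 0.0219; exact permutation test, p = 0.0190), and it no longer passed without mutant 2 or mutant 4, where the adjusted p reached 0.0596 at most. Arg-TCT-3-1 fell, from 23.9% ± 1.69 (SD, n = 6) to 20.8% ± 1.33 (SD, n = 4), a change of −0.25 ± 0.08 (limma adjusted p = 0.0342) that was lost in 5 of the 10 fits without 1 library, those without mutants 2 and 4 and wildtypes 1, 2 and 3. Arg-TCT-1-1, at 44.2% ± 2.71 (n = 4) against 39.9% ± 2.66 (n = 6), did not pass (0.25 ± 0.10, limma adjusted p = 0.0639).

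**Figure D2:**
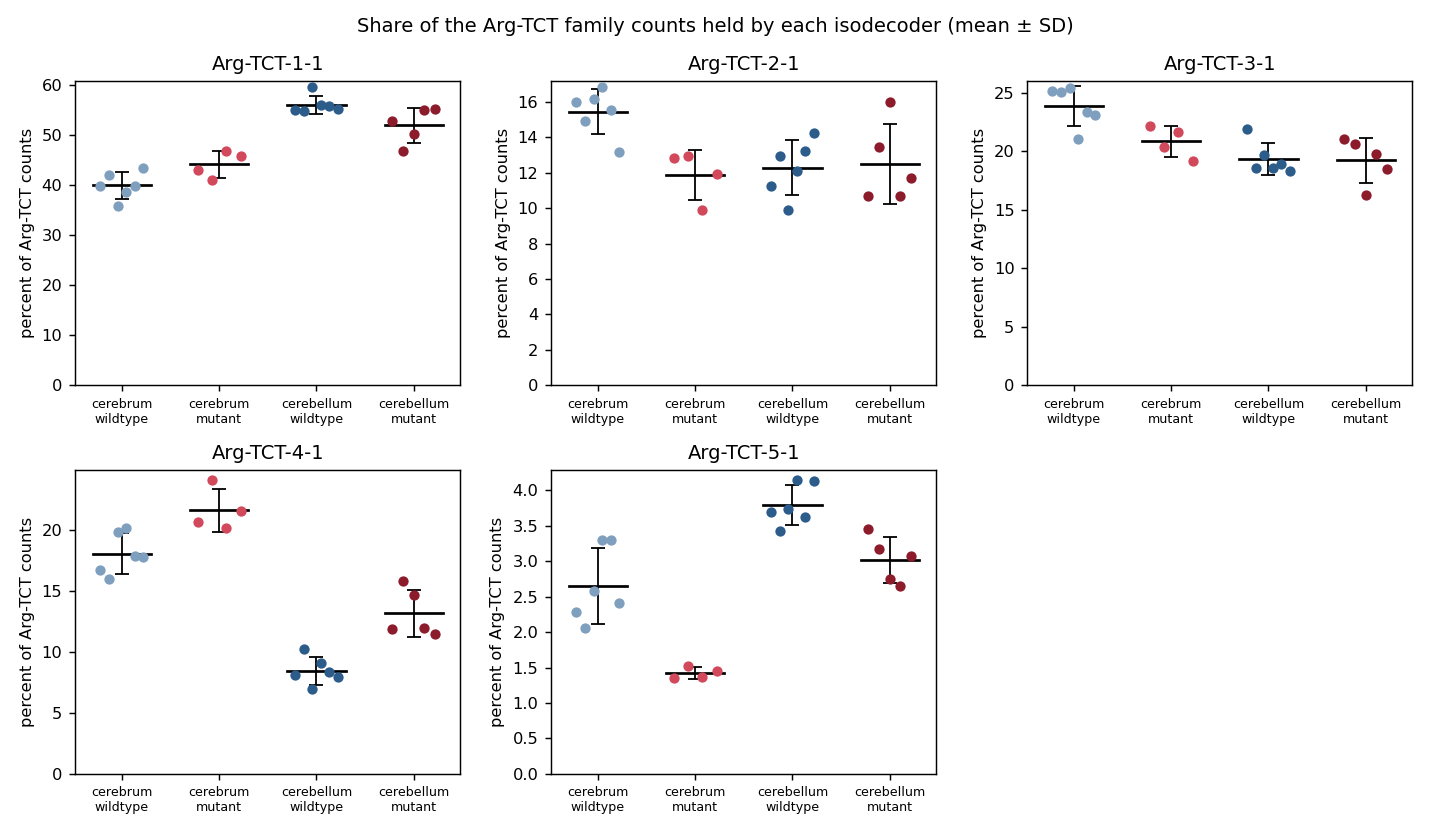
Percentage of the Arg-TCT family's counts held by each isodecoder, 1 point per library, with the mean (line) and SD (bar) of each group; vertical axes start at 0 and differ between panels. In cerebellum all mutant libraries lie above all wildtype libraries for Arg-TCT-4-1, and in cerebrum all mutant libraries lie below all wildtype libraries for Arg-TCT-2-1 and Arg-TCT-5-1.

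In cerebellum 0 of 5 levels passed with edgeR, where 2.48% of all tRNAs tested passed. At an unadjusted p under 0.05 there were 2, Arg-TCT-4-1 and Arg-TCT-5-1, where 19.8% of all tRNAs had one, and DESeq2 called the same number, beside 11.4% of all tRNAs. Arg-TCT-4-1 was at 739, 824, 874, 634 and 909 CPM in mutants 1 to 5, and at 515, 537 and 685 CPM at the lowest, median and highest in wildtype. Mutant 4 lay within the wildtype range and the other 4 lay above it. The log2 difference of 0.44 ± 0.12 missed the threshold (SE, edgeR adjusted p = 0.0514), ranked 8 of 202 by p, and was 0.47 with DESeq2 (adjusted p = 0.00293) and −0.09 on the spike-in scale (edgeR adjusted p = 0.734).

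Arg-TCT-5-1 was at 214, 166, 163, 141 and 243 CPM in cerebellum mutants 1 to 5 and at 229, 241 and 314 CPM in wildtype. Mutants 1 to 4 lay below every wildtype library and mutant 5 among them. The log2 difference was −0.52 ± 0.16 (edgeR adjusted p = 0.1002). Arg-TCT-1-1 (−0.31 ± 0.16), Arg-TCT-2-1 (−0.17 ± 0.14) and Arg-TCT-3-1 (−0.21 ± 0.15) had edgeR adjusted p from 0.280 to 0.574. The family sum was 5911 ± 887 CPM (SD, n = 5) in mutant and 7117 ± 851 CPM (SD, n = 6) in wildtype cerebellum, both with the factors of the anticodon sums, a log2 difference of −0.27 ± 0.11 that did not pass (edgeR adjusted p = 0.204). The members' CPM added to 6111 ± 1083 (SD, n = 5) and 6744 ± 865 (SD, n = 6), and with their factors the Arg-TCT sum had −0.20 (edgeR adjusted p = 0.428). No anticodon sum passed there with edgeR, 0% of 71, although 17 had an unadjusted p under 0.05 and the family's own unadjusted p was 0.0316.

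Arg-TCT-4-1 gained share in mutant cerebellum. It held 11.9%, 15.8%, 14.7%, 11.9% and 11.5% of the family in mutants 1 to 5, and 6.99%, 8.22% and 10.3% at the lowest, median and highest in wildtype. All mutants lay above all wildtype libraries. The log2 ratio to the rest of the family rose by 0.72 ± 0.13 (SE, limma adjusted p = 0.0123; exact permutation test, p = 0.00433, the lowest value 5 against 6 libraries can give), rank 2 of 173 isodecoders by p, and passed in all 11 fits that left out 1 library. Arg-TCT-5-1 lost share, with 3.46%, 3.18%, 2.75%, 2.66% and 3.08% in mutants and 3.43%, 3.72% and 4.15% in wildtype, an overlap between mutant 1 and the lowest wildtype library. Its change was −0.34 ± 0.09 (limma adjusted p = 0.0357) and did not pass in 8 of the 11 fits without 1 library, where the adjusted p reached 0.103 at most; the call held without mutants 1 and 5 and wildtype 2. These 2 of 5 members stand beside 7.51% of all isodecoders. Arg-TCT-1-1 (−0.24 ± 0.10, limma adjusted p = 0.156), Arg-TCT-2-1 (0.02 ± 0.14) and Arg-TCT-3-1 (−0.01 ± 0.10, both at adjusted p = 0.946) did not pass.

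Depth moves with genotype in cerebellum, and with the depth class as a covariate the change of Arg-TCT-4-1 was 0.66 (limma adjusted p = 0.103) and that of Arg-TCT-5-1 −0.24 (limma adjusted p = 0.272), so neither passed. Within the shallow class the share of Arg-TCT-4-1 was 11.9% (Wilson 95% interval 11.4% to 12.5%) in the 1 mutant and 8.48% on average in the 5 wildtype libraries. Within the deep class it was 13.5% on average in 4 mutants and 8.32% (Wilson 95% interval 8.05% to 8.60%) in the 1 wildtype library. The intervals cover counting error only. Within each class the direction was that of the whole, with too few libraries for a test.

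Ratios of Arg-TCT-4-1 to each of the other members were set out one by one. Reads of Arg-TCT-4-1 per read of Arg-TCT-5-1 numbered 5.40 to 7.79 in wildtype and 14.8 to 15.8 in mutant cerebrum, and 1.87 to 2.995 in wildtype and 3.45 to 5.35 in mutant cerebellum, with no overlap in either tissue. Per read of Arg-TCT-2-1 the ranges were 1.04 to 1.35 and 1.61 to 2.04 in wildtype and mutant cerebrum, and 0.555 to 0.794 and 0.918 to 1.17 in cerebellum, again with no overlap. Against Arg-TCT-3-1 the ranges met in cerebrum, at 0.638 to 0.959 in wildtype and 0.934 to 1.18 in mutant, and lay apart in cerebellum, at 0.355 to 0.553 and 0.566 to 0.903. Against Arg-TCT-1-1, the most abundant member, the ratio was 0.456 ± 0.0686 (SD, n = 6) in wildtype and 0.493 ± 0.0676 (SD, n = 4) in mutant cerebrum, with overlapping libraries, and 0.151 ± 0.0232 (SD, n = 6) and 0.256 ± 0.0563 (SD, n = 5) in cerebellum, without overlap. These ratios use the same counts as the shares and were not tested apart. How often such ratios lie apart in other families was not counted, so their separation is not shown to be particular to Arg-TCT.

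The effect of genotype was compared between tissues as the cerebellum change minus the cerebrum change. In shares 2 of 5 members passed, beside 19% of all isodecoders. Arg-TCT-1-1 had −0.49 ± 0.14 (SE, limma adjusted p = 0.0185), its ratio to the rest of the family being 0.25 higher in mutant cerebrum and 0.24 lower in mutant cerebellum. Arg-TCT-5-1 had 0.55 ± 0.17 (limma adjusted p = 0.0225), a fall in both tissues that was larger in cerebrum. Without cerebrum mutant 3 neither passed (both at adjusted p = 0.0511), and with the depth class as a covariate Arg-TCT-1-1 did not (adjusted p = 0.0764). For Arg-TCT-4-1 the difference was 0.39 ± 0.17 (limma adjusted p = 0.116), so its rise in share is not shown to differ between tissues. Of the levels 0 of 5 passed with edgeR, where 4.9% of all tRNAs did; 1, Arg-TCT-1-1, had an unadjusted p under 0.05, where 14.7% of all tRNAs did, and DESeq2 called 0 of the members and 8.33% of all. The family sum had −0.28 ± 0.18 (edgeR adjusted p = 0.732), where 1.39% of anticodon sums passed.

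**Figure D3:**
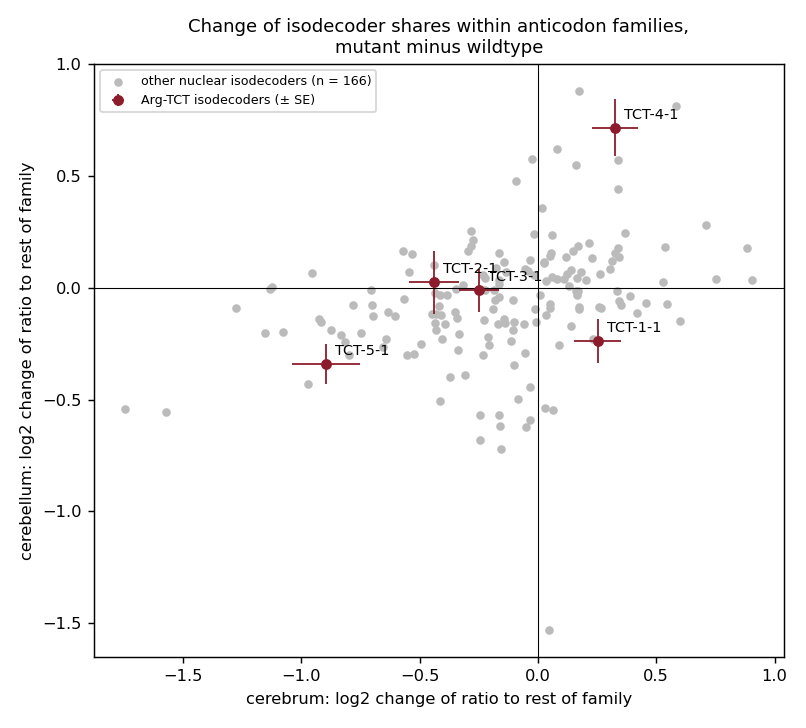
Log2 change of the ratio of each isodecoder to the rest of its anticodon family, mutant minus wildtype, in cerebrum (horizontal) and cerebellum (vertical); red points with SE bars are the Arg-TCT members and grey points the 166 other nuclear isodecoders. Arg-TCT-4-1 lies above 0 and Arg-TCT-5-1 below 0 in both tissues, and Arg-TCT-1-1 lies above 0 in cerebrum and below 0 in cerebellum.

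Between the tissues of the mutants the family kept much of the wildtype pattern. Arg-TCT-4-1 was lower in cerebellum by 1.25 ± 0.15 on the log2 scale (edgeR adjusted p = 3.06e-08), with 1888 ± 429 CPM (SD, n = 4) in cerebrum and 796 ± 111 CPM (SD, n = 5) in cerebellum. Arg-TCT-3-1 (−0.65 ± 0.16) and Arg-TCT-2-1 (−0.47 ± 0.17) were lower and Arg-TCT-5-1 (0.58 ± 0.19) was higher, so 4 of 5 passed, where 72.5% of all tRNAs did. Arg-TCT-1-1 (−0.27 ± 0.16) had an edgeR adjusted p of 0.143. The Arg-TCT sum fell by 0.43 ± 0.14 (edgeR adjusted p = 0.00603), or 0.52 with the members' factors (edgeR adjusted p = 0.00172), where 80.6% of anticodon sums passed, and lost its pass on plain library totals (−0.17, edgeR adjusted p = 0.204) and without cerebrum mutant 1 or cerebellum mutant 2 (adjusted p at most 0.0792). In shares 3 of 5 passed, beside 61.5% of isodecoders: Arg-TCT-1-1 at 0.45 ± 0.11, Arg-TCT-4-1 at −0.87 ± 0.13 and Arg-TCT-5-1 at 1.11 ± 0.13 (SE, limma adjusted p from 5.36e-07 to 0.00114). Arg-TCT-2-1 (0.08 ± 0.14, limma adjusted p = 0.657) and Arg-TCT-3-1 (−0.15 ± 0.10, adjusted p = 0.198) did not pass. The levels of Arg-TCT-4-1 ran, from high to low, from mutant cerebrum over wildtype cerebrum and mutant cerebellum to wildtype cerebellum. Its ranges overlapped between genotypes in each tissue and not between tissues.

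What is held constant sets the sign of several level changes. When mitochondrial tRNA totals set the scale, the median change of all tRNAs moved from −0.03 to −0.41 in cerebrum and from −0.03 to −0.37 in cerebellum. On that scale 3 of 5 members passed in cerebrum and 4 of 5 in cerebellum, all of them lower: Arg-TCT-2-1, Arg-TCT-3-1 and Arg-TCT-5-1 in both tissues and Arg-TCT-1-1 in cerebellum. Of all tRNAs 53.4% were lower on that scale in cerebrum, near the share of the members, and 26.2% in cerebellum. The family sum stood at −0.29 in cerebrum (edgeR adjusted p = 0.0603) and fell by 0.57 in cerebellum (edgeR adjusted p = 0.00408), where it also passed on the spike-in scale (−0.76, edgeR adjusted p = 0.0409). Arg-TCT-4-1 was near 0 on both scales in both tissues, at −0.02 and 0.00 in cerebrum and 0.10 and −0.09 in cerebellum, and had the highest value of the 5 members under each scaling. Per 100 mitochondrial tRNA reads there were 3.04 to 4.42 Arg-TCT reads in mutant and 5.13 to 6.65 in wildtype cerebellum, without overlap, and 4.49 to 6.52 against 5.72 to 6.86 in cerebrum, with overlap. Whether mitochondrial tRNAs rose or nuclear tRNAs fell was not tested.

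**Figure D4:**
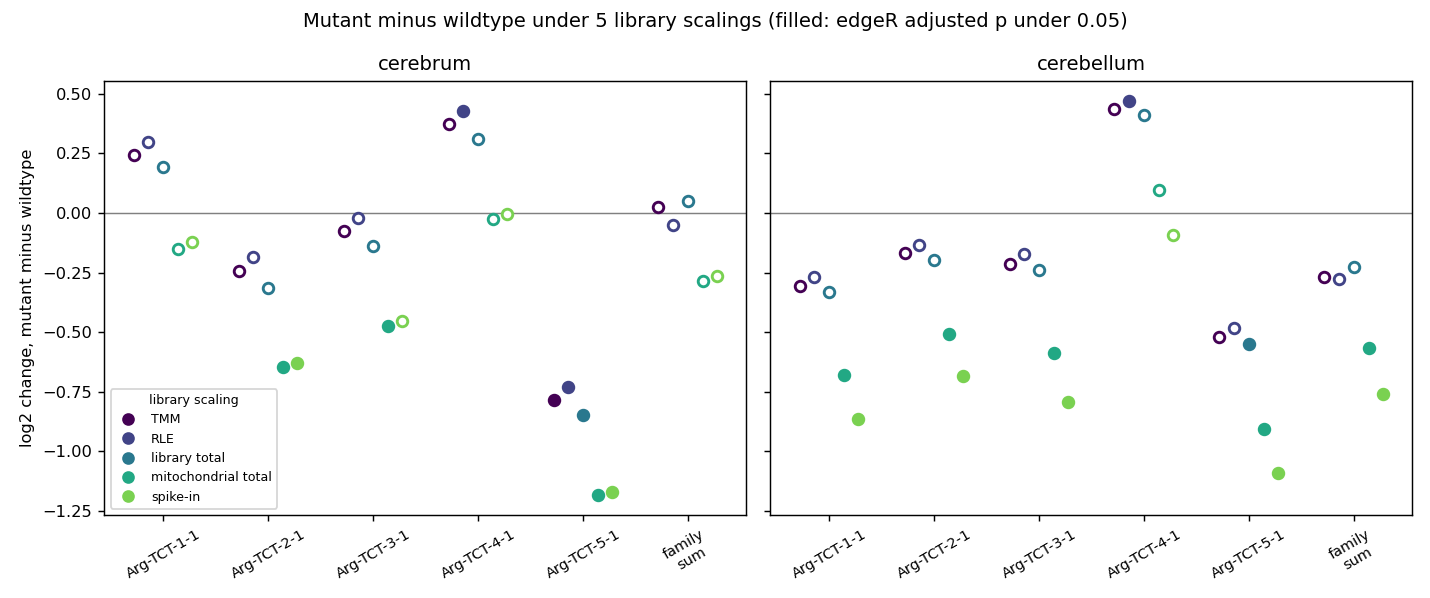
Log2 change of each Arg-TCT isodecoder and the family sum, mutant minus wildtype, in cerebrum and cerebellum under 5 ways of scaling libraries (colours; TMM and RLE factors of the sum come from the anticodon sums); filled points had an edgeR adjusted p under 0.05 and open points did not. Arg-TCT-4-1 is the highest and Arg-TCT-5-1 the lowest of the 5 isodecoders under every scaling in both tissues.

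The authors' own comparison was made on a scale close to the mitochondrial one. Size factors recovered from the mean levels in the authors' deposited table tracked the median ratio over mitochondrial tRNAs, with a coefficient of variation of 1.07% between libraries in cerebrum and 0.600% in cerebellum. In the authors' deposited table of anticodons Arg-TCT ranked first of 72 in cerebellum by p, at −0.53 ± 0.12 (SE, adjusted p = 0.000478), and 45 of 73 in cerebrum, at −0.29 ± 0.15 (adjusted p = 0.0990). Of the isodecoders in cerebellum, the authors' deposited table gave −0.87 for Arg-TCT-5-1 (rank 3 of 209 by p), −0.65 for Arg-TCT-1-1, −0.55 for Arg-TCT-3-1, −0.47 for Arg-TCT-2-1 and 0.14 for Arg-TCT-4-1 (adjusted p = 0.569). The isodecoder values for cerebrum in the authors' deposited table carry the opposite sign to changes computed from the counts in 206 of 208 rows, so they were read as wildtype minus mutant. With the sign turned, the authors' deposited table gave −1.18 for Arg-TCT-5-1, −0.64 for Arg-TCT-2-1, −0.48 for Arg-TCT-3-1, −0.16 for Arg-TCT-1-1 and −0.03 for Arg-TCT-4-1 in cerebrum. Arg-TCT-4-1 was the highest of the 5 there too.

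Other arginine tRNAs give the setting. Of the 14 other nuclear arginine isodecoders, with anticodons ACG, CCG, CCT and TCG, 1 rose in mutant cerebrum (Arg-CCG-2-1, 0.40) and 1 fell (Arg-ACG-2-1, −0.59), beside 8.17% of all tRNAs higher and 11.5% lower, and their median change of −0.05 was near that of all tRNAs tested, −0.03. In cerebellum 0 of 14 passed with edgeR, beside 2.48% of all tRNAs, and the median was −0.16. The Arg-TCT members had medians of −0.08 in cerebrum and −0.21 in cerebellum. The mitochondrial arginine tRNA, Arg-TCG-MT, which the nuclear enzyme does not make, stood at 0.48 ± 0.13 in mutant cerebrum, which passed among isodecoders (edgeR adjusted p = 0.0106) and not among anticodon sums (0.40, adjusted p = 0.0736), and at 0.34 in cerebellum (adjusted p = 0.1002). In cerebrum 15 of the 22 mitochondrial tRNAs passed as higher among isodecoders. The authors' deposited table of anticodons gave 0.07 for Arg-TCG-MT in cerebrum (adjusted p = 0.653). The authors' scale follows the mitochondrial tRNAs and holds their typical change near 0. The value therefore does not bear on whether Arg-TCG-MT rose. Between wildtype tissues 10 of the 14 were lower and 3 higher in cerebellum, with a median of −0.66, beside 37.7% of all tRNAs lower and 33.3% higher, with a median of −0.05.

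Families whose genes also hold introns were set beside Arg-TCT. Not every Arg-TCT locus has room for an intron, n-TRtct5 spanning 74 bases. Whether the gene of Arg-TCT-4-1 holds one could not be read here. In mutant cerebrum 2 of 5 Tyr-GTA, 1 of 4 Leu-CAA and 0 of 2 Ile-TAT isodecoders fell and none of these rose, with medians of −0.21, 0.13 and −0.06, beside 11.5% of all tRNAs lower, and in cerebellum 0 of these 11 passed with edgeR, beside 2.48% of all. The tRNAs whose levels ran most like Arg-TCT-4-1 over the 21 libraries were Thr-TGT-1-1 (Pearson r = 0.953), Thr-CGT-1-1 (r = 0.925) and Asn-GTT-3 (r = 0.919). Within cerebrum alone r was 0.746, 0.663 and 0.909, and within cerebellum alone 0.744, 0.752 and 0.192, so for Asn-GTT-3 the likeness was mainly that between tissues and within cerebrum. Inside each tissue another tRNA, Arg-CCG-2-1, ran closest to Arg-TCT-4-1, at r = 0.972 in cerebrum and 0.879 in cerebellum. Over the 21 libraries it ranked 72 (r = 0.605), and it was picked out after seeing the values. These values are a description, and the points share library depth and scaling.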

How the data were processed

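Quant M tRNA sequencing covered 21 libraries, 10 of cerebrum and 11 of cerebellum. The submitters' processing notes name the mm10 build and the tools cutadapt, Bowtie2, featureCounts and DESeq2, without versions or settings. For each tissue the authors deposited a table of raw, unnormalized read counts, and its column names identified every library. Their deposited comparison tables hold log2 fold changes, p-values, test statistics (a score) and a mean signal, per the file headers, the signal being counts over size factors.

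The spike-in row entered neither library sizes nor tests. Levels were tested with edgeR 4.0.16 in R 4.3.3: TMM, filterByExpr with a minimum count of 10, robust quasi-likelihood fits and two-sided F tests, with the SE taken as the log2 difference over the square root of F. All 5 members passed the filter in both tissues. Each tissue was fitted alone for genotype (208 and 202 tRNAs); comparisons of tissues used 1 model of all 21 libraries (204 tRNAs). Anticodon sums added isodecoders, nuclear and mitochondrial apart, and had TMM factors of their own. Shares were tested with limma 3.58.1 on log2((count + 0.5)/(rest of family + 0.5)). Permutation tests over libraries were exact and two-sided, with the smaller tail doubled. Alternatives were other scalings, DESeq2 1.42.0, other filters and pseudocounts, sex, replicate number or depth class in the model, and leaving out each library; the authors' size factors, and the isodecoders' TMM factors for the sum, were added after seeing the data. The steps were tested on simulated data. No 2 libraries of a group agreed within sampling noise (lowest chi-square per degree of freedom 46.2 over 46 pairs).

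The members and lists were chosen with earlier results of these data known. Named tRNAs were all Arg-TCT rows, passing members of the other nuclear arginine list, the mitochondrial arginine tRNA and the 3 tRNAs most correlated with Arg-TCT-4-1.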

Additional observations from a re-analysis of the deposited data

Results flagged for a closer look

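Of 44 sets of values (each member's level and share and the sum's level, in each of the 4 groups), 4 held 1 library far from the rest by Dixon's test at its 95% critical value, and chance gives about 1 in 20. In wildtype cerebellum, replicate 3 was the highest of 6 for the family sum (8800 CPM, scaled by the factors of the anticodon sums), for the level of Arg-TCT-1-1 (5018 CPM) and for the share of Arg-TCT-1-1 (59.7%). In mutant cerebrum, replicate 1 was the highest of 4 for the level of Arg-TCT-1-1 (5068 CPM). The genotype effect differed between tissues for the shares of Arg-TCT-1-1 (−0.49, cerebellum change minus cerebrum change on the log2 scale) and Arg-TCT-5-1 (0.55), by limma's interaction term.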

How the results depend on the processing

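Levels depended on the scaling, and which shares passed depended on whether the depth class was in the model and on single libraries. The number of members with a changed level, 1 of 5 in cerebrum, was 2 with RLE size factors, spike-in scaling, DESeq2, no filter or nuclear tRNAs only, and 3 with mitochondrial scaling or the authors' size factors. In cerebellum, 0 of 5 became 1 with RLE, library totals, no filter, a minimum mean count of 50 or nuclear tRNAs only, 2 with DESeq2, 3 with the authors' factors and 4 with mitochondrial or spike-in scaling. In cerebrum the family sum, 0.03, turned to −0.051 with RLE and DESeq2, −0.041 at a mean count minimum of 50, −0.29 with mitochondrial scaling and with the authors' factors, and −0.26 with the spike-in; in cerebellum, −0.27 passed at −0.57, −0.76 and −0.53 with mitochondrial, spike-in and the authors' scaling. Arg-TCT-1-1 in cerebrum turned to −0.15, −0.12 and −0.16, and Arg-TCT-4-1 to −0.025, −0.0048 and −0.025, with mitochondrial, spike-in and the authors' scaling; Arg-TCT-4-1 in cerebellum turned to −0.094 with the spike-in. Between wildtype tissues 5 levels passed with RLE, mitochondrial or spike-in scaling, DESeq2 or nuclear tRNAs only. DESeq2 and the main fit each passed 71.1% of all tRNAs there. The spike-in turned Arg-TCT-1-1 to −0.55 and Arg-TCT-5-1 to −0.54 and put the sum at −1.05, and library totals put the sum at 0.11. Between mutant tissues library totals gave 2 levels, Arg-TCT-1-1 at 0.070 and the sum at −0.17, and the spike-in gave −0.46 for Arg-TCT-5-1. The cause was not tested. Over all tRNAs the 41 calls in cerebrum became 111, 74 and 115, and the 5 in cerebellum 53, 83 and 32, with mitochondrial, spike-in and the authors' scaling, all lower. DESeq2 gave 52 and 23. Where a setting has no count over all tRNAs here, its number of members shows dependence on processing only. With the isodecoders' TMM factors the Arg-TCT sum was 0.11 in cerebrum, and it kept its direction and its side of the threshold in all 5 comparisons, while calls over all anticodon sums in cerebrum went from 8 to 17.

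With the depth class in the model 0 of the 2 cerebellum shares passed (Arg-TCT-2-1 at −0.12, Arg-TCT-3-1 at 0.068), 1 share differed between tissues in its genotype effect and 3 differed between wildtype tissues; with sex in the model 1 cerebellum share passed, Arg-TCT-4-1. Whether replicate numbers pair libraries is undecided. The labels do not say that a number marks a single animal, and sex agrees across tissues at 10 of 10 numbers shared within a genotype. Across genotypes a number cannot mark a single animal, and sex differs there at numbers 2, 3 and 4. Of 6 wildtype pairs across tissues 4 correlated above 0.1 and 4 correlated best with their own number. Of 4 mutant pairs across tissues 1 correlated above 0.1 and 0 correlated best with their own number. Across genotypes 2 of 4 cerebrum pairs and 2 of 5 cerebellum pairs correlated above 0.1. Between wildtype cerebrum and mutant cerebellum, which were not compared, 5 of 5 did. With the replicate block 3 levels passed in cerebrum, 5 between wildtype tissues and 1 in the difference between tissues, and 1 share passed in cerebellum, Arg-TCT-4-1; in cerebrum its share no longer did (0.32, limma adjusted p = 0.148), and calls over all tRNAs went from 41 to 65.

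Leaving out 1 library at a time gave 1 to 2 changed levels (2 without mutant 1, mutant 3 or wildtype 6) and 2 to 5 shares in cerebrum (2 without mutant 4), with the sum from −0.11 (without mutant 1) to 0.093 and Arg-TCT-3-1 from −0.23 to 0.024 (without mutant 4). In cerebellum it gave 0 to 3 levels (3 without mutant 5, 1 without mutant 4 or wildtype 2), 1 to 2 shares, the sum from −0.35 (passing, without mutant 5) to −0.20, and shares of Arg-TCT-2-1 from −0.085 to 0.084 and Arg-TCT-3-1 from −0.054 to 0.060. For the difference between tissues it gave 0 to 1 levels (1 without cerebellum mutant 5) and 0 to 2 shares (0 without cerebrum mutant 3); for wildtype tissues 3 to 5 levels (5 without cerebellum mutant 5); for mutant tissues a sum from −0.53 to −0.27 and an Arg-TCT-2-1 share from −0.032 to 0.14. The share of Arg-TCT-4-1 kept its direction in each comparison of genotype within a tissue and of tissues under all of these settings. Depth limits Arg-TCT-5-1 most, at 408 counts in its shallowest library.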
